A study of Caenorhabditis elegans with 6 samples.

Results

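The TRPV channel genes of Caenorhabditis elegans are osm-9, ocr-1, ocr-2, ocr-3 and ocr-4, and their small RNAs were compared between 2 lines of descent that differed in ancestral temperature. The 5 genes were taken by exact name from tables of 46761 features, 1 table for each of 3 small RNA classes, and were chosen with the 22G result of osm-9 already known. The values of osm-9 in High and Low are therefore given as a description, with no test. The worms were gravid adults of strain BCN1050, which carries the unc-119(ed3) mutation together with unc-119(+) on the integrated transgene crgIs1002 with a daf-21 promoter driving mCherry and an unc-54 3′ UTR, in the N2 background. All groups share this genotype. In the High group (n = 3) the P0 animals were kept at 25 °C, and in the Low group (n = 3) at 16 °C. The P0 animals were moved to 20 °C as L4 larvae, and the F2 animals that were sequenced grew at 20 °C for 72 hours. RNA came from pooled whole animals, so fewer cells of a type and fewer small RNAs per cell cannot be told apart, and the tables hold no transcript levels against which tissue or stage could be checked.

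TRPV channels are cation channels of the transient receptor potential family. In the worm, OSM-9 acts with OCR proteins in the cilia of sensory neurons, where the OSM-9 and OCR-2 subunits depend on each other to reach the cilium, and it is required for responses to noxious, osmotic, mechanical and some odour stimuli. OSM-9 also acts in adaptation of the AWC olfactory neurons to odour. Endogenous RNAi has a known part in the biology of osm-9, since animals that have passed through the dauer stage lower osm-9 expression in the ADL neurons in a manner that needs endogenous RNAi components. Of the 3 classes measured, 22G RNAs are copied from target transcripts by RNA-dependent RNA polymerases. 26G RNAs act upstream of some of them, with ERGO-1 or with the ALG-3 and ALG-4 Argonautes of sperm. 21U RNAs are the piRNAs of the worm, the partners of PRG-1.

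The 22G class held 1380170 to 2685999 reads per library, the 26G class 18704 to 37706 and the 21U class 37630 to 59648. Values are normalized counts, that is reads scaled by the size factor that the authors set for each library. Low replicate 1 stood apart in the 26G class, with a normalized total of 57141 against 17491 to 25760 in the other 5 libraries. Its normalized total in the 21U class was also the highest, at 59360 against 41430 to 45567. It had the fewest 22G reads, 1380170, and in each class the fewest features with a read. The submitters call the libraries biological replicates. The p-values set the difference between the groups against the spread between libraries, which limma moderates across features.

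Among the 5 TRPV genes, osm-9 carried nearly all of the small RNA signal, and less of it in High than in Low. It had 34 reads of 6766335 in the High libraries and 251 reads of 5982023 in the Low libraries of the 22G class. Per library, osm-9 had 16, 7 and 11 reads in High replicates 1 to 3 and 81, 113 and 57 reads in Low replicates 1 to 3. These are modest counts, and each is given below with a 95% exact Poisson interval that covers counting error only.

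The osm-9 gene was at 17.6 normalized counts (10.1 to 28.6) in High replicate 1, at 6.22 (2.5 to 12.8) in High replicate 2 and at 9.0 (4.49 to 16.1) in High replicate 3. It was at 122.8 (97.5 to 152.6) in Low replicate 1, at 86.3 (71.1 to 103.8) in Low replicate 2 and at 60.3 (45.7 to 78.2) in Low replicate 3. Every Low library lay above every High library, and no interval of one group reached an interval of the other. The lowest Low value was 3.42 times the highest High value. Within Low, replicates 1 and 3 had intervals that did not meet, with a ratio of 2.03, so the Low libraries also differed among themselves by more than counting error. Within High, the ratio of the highest to the lowest library was 2.83 and all 3 intervals overlapped.

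The High mean of osm-9 was 10.9 ± 5.94 normalized counts and its Low mean was 89.8 ± 31.4 (SD, n = 3 each), so the Low mean was 8.20 times the High mean. On the scale of log2 of the normalized count plus 1, the difference of High minus Low was -2.98 ± 0.36 (SE of limma). It was the 6th most negative difference of the 9402 features of the 22G class that reached a mean of 5 normalized counts, the minimum for a test. limma called 2.66% of these features lower in High at an adjusted p under 0.05, and the groups did not overlap, with High below Low, for 9.97% of them. These shares are background only, and osm-9, chosen by this contrast, is not counted against them. Without Low replicate 1, the library with the highest osm-9 value, the Low mean was 73.3 normalized counts and the log2 difference -2.73.

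Per kilobase of annotated exon, the 22G level of osm-9 was 3.81 normalized counts in High replicates and 31.2 in Low. Of 9077 tested features with an annotated exonic length, 3.24% lay below this level in High and 38.1% in Low. The gene was thus near the bottom of the tested features in High and within their middle range in Low.

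The ocr genes, which encode the other TRPV subunits, carried next to no small RNA in either group. ocr-2, whose product acts with OSM-9 in the ASH, AWA and ADL neurons, had 1 read of the 22G class, in High replicate 2, and none in the other 5 libraries. That is 0.888 normalized counts in a single library, below any comparison. ocr-1, which is expressed in AWA and ADL neurons, ocr-3 and ocr-4, which acts with OSM-9 in the OLQ head neurons, had 0 reads of 12748358 over the 6 libraries of the 22G class. A count of 0 allows up to 3 reads, that is up to 0.235 RPM (reads per 1000000 reads of the class) for each gene, against 5.02 RPM for osm-9 in High and 42.0 in Low. Per group, the limit for ocr-1, ocr-3 and ocr-4 was 0.443 RPM in High and 0.501 in Low. The level of osm-9 in either group was thus above what the counts allow for these 3 genes, although their exonic lengths, 2689 bp in ocr-1, 2537 bp in ocr-3 and 2390 bp in ocr-4, are close to the 2875 bp of osm-9 and the 2871 bp of ocr-2. Genes with no read were common, at 5897 of 19362 protein-coding features (30.5%). No difference between High and Low was detectable in any ocr gene at this depth.

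In the 26G and 21U classes all 5 TRPV genes, osm-9 included, had 0 reads in every library. With 147085 reads of the 26G class over the 6 libraries, this allows up to 20.4 RPM for each gene, and with 279046 reads of the 21U class up to 10.8 RPM. Both limits are above the 5.02 RPM that osm-9 had in the High libraries of the 22G class, so a share as low as that was not detectable in the shallower classes. Of all features, 91.2% had no 26G read and 83.7% no 21U read. Of 272 tested 26G features limma called 0% (3 features at an unadjusted p under 0.05, with 0 called by edgeR and 11 by DESeq2). Of 592 tested 21U features it called 0.169%, and no TRPV gene was among those tested.

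The surroundings of the genes were read from the Ensembl annotation of the WBcel235 build, which need not be the one the authors counted on, so no coordinates are given. osm-9, ocr-2 and ocr-4 lie on chromosome IV, ocr-1 on chromosome V and ocr-3 on chromosome X. osm-9 has 14 exons. One of its introns holds the noncoding RNA gene B0212.7, 225 bp long on the opposite strand, and within that stretch the tRNA gene B0212.t1 on the strand of osm-9. Neither shares an exonic base with osm-9.

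B0212.7 also carried 22G signal, with its highest value in Low replicate 1 as for osm-9. It was at 34.1, 20.4 and 29.5 normalized counts in High replicates 1 to 3 and at 372.8, 50.4 and 43.4 in Low replicates 1 to 3. Every Low library was again above every High library, as for 9.97% of all tested 22G features. Most of the difference lay in Low replicate 1, the library that stood apart in the 26G class. The log2 difference was -1.74 ± 0.64 and did not pass (limma adjusted p = 0.166), and it was -0.75 without Low replicate 1 (limma adjusted p = 0.106). The features Y59E1B.5 and ZK617.10 had the same 22G values as B0212.7 in all 6 libraries, so reads given to it cannot be assigned to the osm-9 intron. In the 26G class B0212.7 was at 4.40, 2.66 and 6.55 normalized counts in the High libraries and at 66.7, 8.40 and 6.35 in Low, again highest in Low replicate 1, and it did not pass (limma adjusted p = 0.518). B0212.t1 had 0 reads in the 3 classes. The sources used here do not say how reads with several matches, or reads of the opposite strand, were counted.

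The nearest protein-coding gene to osm-9, nstp-6, lies 3489 bp away. It was at 4.40, 13.3 and 12.3 normalized counts in the High libraries and at 3.03, 3.06 and 5.29 in Low, which is opposite in sign to osm-9, with groups that overlap and a log2 difference of 1.11 ± 0.50 that did not pass (limma adjusted p = 0.28). On the other side, 7769 bp away, the chemoreceptor gene sre-5 had at most 1.1 normalized counts in any library. Of the flanking genes, nstp-6 thus gave no call and sre-5 had too few reads for a test.

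**Figure D1:**
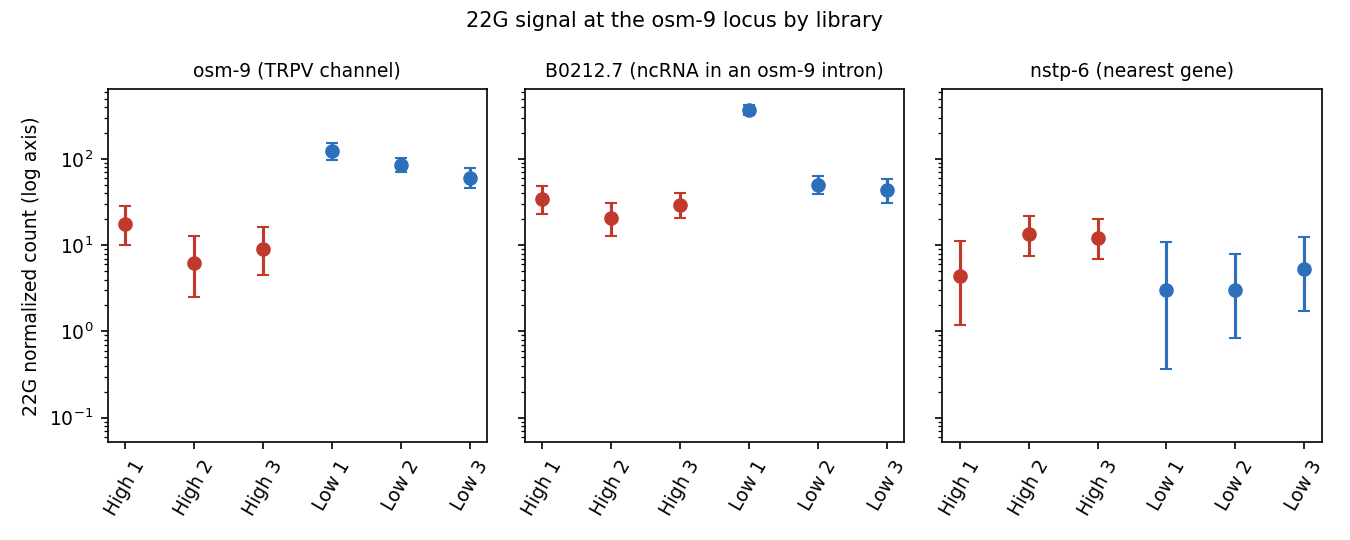
22G normalized counts on a log axis in each High (red) and Low (blue) library for osm-9, for the noncoding RNA gene B0212.7 in one of its introns and for the nearest gene nstp-6, where bars are 95% exact Poisson intervals of the read count. osm-9 sits between 6.22 and 17.6 in High and between 60.3 and 122.8 in Low, whereas B0212.7 is set apart mainly by the value of 372.8 in Low replicate 1.

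The genes around the ocr genes differed widely in 22G reads. The protein-coding gene D1054.1 overlaps ocr-1 by 128 bp of exon on the opposite strand and was at 7.11 to 15.4 normalized counts in High replicates and 6.11 to 14.8 in Low, with 63 reads in all, while ocr-1 had none. The proteasome subunit gene pas-2, 1777 bp from ocr-1, had 412 reads, and sre-6, on the other side of ocr-1, had 1 read. The glutathione peroxidase gene gpx-6, 2114 bp from ocr-2, had 304 reads, and svh-1, 46 bp from ocr-2 on the other side, had 0 reads. The genes nearest to ocr-4, sqst-2 and daf-42, also had 0 reads. ocr-4 overlaps the piRNA loci 21ur-15313, 21ur-14935 and 21ur-11728, each of which had 0 reads in the 22G and 26G classes. In the 21U class they also had 0 reads, as did ocr-4 itself. Of 17 overlapping and nearest genes of the 5 members, 5 could be tested in the 22G class, 4 had reads under the minimum and 8 had no 22G read. limma called 0 of them, against 8.3% of all tested features, with 2 at an unadjusted p under 0.05, namely B0212.7 and nstp-6, and edgeR and DESeq2 also called 0. Without the filter on low values limma did call B0212.7 (adjusted p = 0.0148), and so did limma with a replicate block (adjusted p = 0.044).

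Features whose 22G pattern was nearest to that of osm-9 were found by the Euclidean distance between log2 profiles over the 6 libraries, each centred on its own mean. The 5 nearest of the tested features were F22B7.9 at a distance of 0.81, F08G5.3 at 1.14, the pyruvate kinase gene pyk-1 at 1.54, K08D12.6 at 1.55 and ZC190.8 at 1.55. F22B7.9 was at 19.6 to 28.6 normalized counts in the High libraries and at 152.4 to 203.1 in Low. In osm-9 the highest Low library was replicate 1 and the lowest was replicate 3, and the same order was seen in F22B7.9, K08D12.6 and ZC190.8. F08G5.3 and pyk-1 were instead highest in Low replicate 2. K08D12.6 was the exception in High replicate 1, where its value lay above its own mean. The distance is a description over 6 libraries, and it is led by the gap between High and Low. The features were chosen by it over these same libraries, so a shared order of libraries is no separate result.

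**Figure D2:**
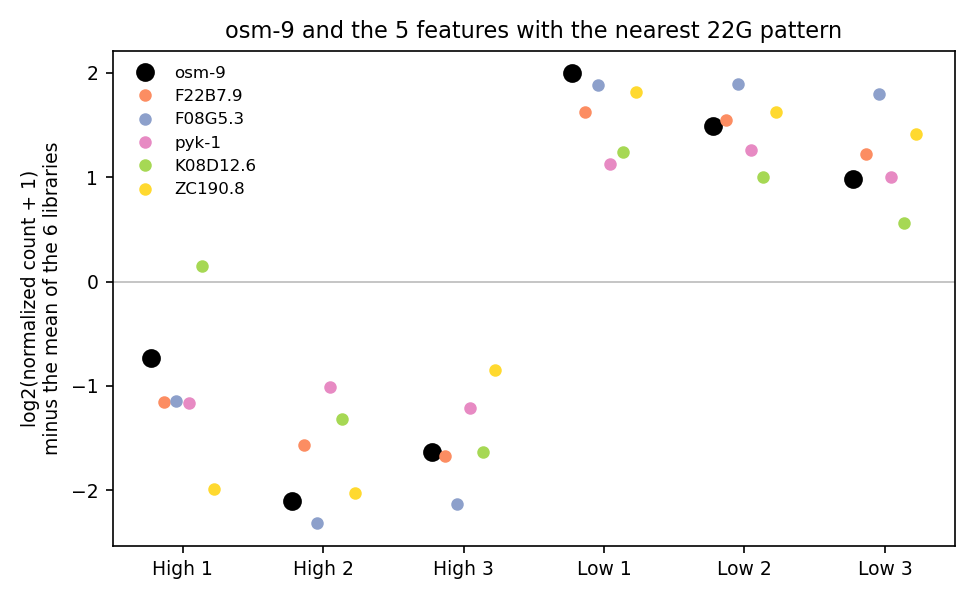
Centred log2 profiles (log2 of the normalized count plus 1, minus the mean over the 6 libraries) of osm-9 in black and of the 5 features with the nearest 22G pattern, by library. All 6 features are low in High and high in Low, except K08D12.6 in High replicate 1, and F22B7.9 lies nearest to osm-9 with a distance of 0.81.

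Few TRP channels outside the TRPV branch had enough 22G signal for a test, too few to set their calls apart from the share over all features. Of 12 TRP genes outside the TRPV branch, 3 had no 22G read, 4 were under the minimum and 5 were tested. limma called 1 of them higher and 0 lower (1 and 0 at an unadjusted p under 0.05), where 5.64% of all tested features were called higher and 2.66% lower. The gene called was trp-4, a TRPN mechanosensory channel, at 1280, 1234 and 1187 normalized counts in High replicates and 924.4, 915.2 and 930.3 in Low. Its log2 difference was 0.42 ± 0.06 (limma adjusted p = 0.000623), and the call was lost in limma without a trend in the variance (adjusted p = 0.0588). Per kilobase of exon, the level of trp-4 was 205.2 normalized counts in High replicates and 153.6 in Low, far above the 3.81 and 31.2 of osm-9. The mucolipin gene cup-5, a lysosomal TRP channel, was at 66.6 ± 4.74 and 63.8 ± 3.31 normalized counts (SD, n = 3 each) and did not pass (limma adjusted p = 0.89). The polycystin gene pkd-2, chosen after its values were seen, was the tested TRP gene nearest to osm-9 in direction, with 4.44 to 5.73 normalized counts in High replicates and 6.88 to 16.7 in Low, and it did not pass (-0.87 ± 0.42, limma adjusted p = 0.316).

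Genes that act with the TRPV channels in sensory signalling are given beside the 8.3% of all tested features that limma called in either direction. The 22 signalling partners included G proteins, receptor trafficking factors, fatty acid desaturases that make channel-activating lipids, and kinases. Of these 22, 9 were tested, and limma called 0, with 0 at an unadjusted p under 0.05 and 0 called by edgeR or DESeq2. The 9 were grk-2, arr-1, rgs-3, pkc-1, fat-1, fat-4, odr-4, odr-8 and egl-4, with no G protein gene among them. odr-4 and odr-8, needed to bring odorant receptors to the cilium, were at 126.8 ± 13.7 and 62.3 ± 8.88 normalized counts in the High libraries and at 124.5 ± 18.9 and 71.6 ± 6.79 in the Low libraries (SD, n = 3 each). Of 19 genes of cGMP and thermosensory signalling 8 were tested, and limma called 0, with 2 at an unadjusted p under 0.05, both higher in High, and 0 called by edgeR or DESeq2. The calcineurin gene tax-6 was at 394.5 ± 14.5 in High and 387.9 ± 35.8 in Low, and the phosphodiesterase gene pde-1 at 728.1 ± 74.3 and 621.7 ± 39.8 (limma adjusted p = 0.923 and 0.18). The median log2 difference was 0.01 for the partners and 0.07 for the thermosensory list, against 0.01 over all tested features.

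The genes of ciliary transport, which build the cilia that hold OSM-9 and OCR-2, held several calls, each opposite in direction to osm-9. Of 39 genes in this list 13 had no 22G read, 12 were under the minimum and 14 were tested. limma called 6 of the 14 higher in High and 0 lower, where 5.64% of all tested features were called higher. edgeR and DESeq2 also called 6 higher and 0 lower, and at an unadjusted p under 0.05 limma had 8 higher and 1 lower. The list held genes chosen with earlier results of these data known, and its median log2 difference was 0.45. The median was 1.23 with a minimum of 20 normalized counts, 0.80 without Low replicate 3, 0.28 without High replicate 2 and 0.29 with no filter.

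The gene with the largest difference of the 6 was bbs-5, a subunit of the BBSome that carries membrane proteins in cilia, at 174.0, 222.9 and 227.5 normalized counts in High replicates and 12.1, 11.5 and 7.41 in Low (4.22 ± 0.21, limma adjusted p = 3.07e-07). dyf-3, of intraflagellar transport complex B, was at 430.5, 784.3 and 1087 in High and 65.2, 77.2 and 73.0 in Low (3.30 ± 0.26, limma adjusted p = 7.65e-06). dyf-2, of complex A, was at 93.6, 124.3 and 74.5 in High and 13.6, 11.5 and 9.53 in Low (2.95 ± 0.23, limma adjusted p = 8.26e-06). The High mean was 20.1 times the Low mean for bbs-5, 10.7 times for dyf-3 and 8.45 times for dyf-2. These genes were named for their large change, so the folds are a description only.

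ift-20, of complex B, rose by 2.16 ± 0.32 on the log2 scale and osm-3, the kinesin that runs along the distal cilium, by 1.23 ± 0.12 (limma adjusted p = 0.00105 and 4.05e-05). arl-13, a ciliary small GTPase gene chosen after its values were seen, rose by 1.85 ± 0.14 (limma adjusted p = 5.45e-06). klp-11, a subunit of the second ciliary kinesin, was at 1236 ± 75.0 and 1187 ± 86.5 normalized counts and did not pass (limma adjusted p = 0.776). Several of these genes share exonic bases with a neighbour. osm-3 shares 181 bp with algn-14, on the same strand, which matched no row and was not analysed here. ift-20 shares 68 of its 463 exonic bp with spe-5 (-0.34, limma adjusted p = 0.639), and dyf-2 shares 27 bp with sid-2, which had at most 3.55 normalized counts in any library. arl-13 shares 13 bp with rla-1, whose 22G signal was also higher in High (0.71, limma adjusted p = 0.023), and bbs-5 shares 20 bp with inpp-4B, counted in the table as R01H10.7, which was at 219.5 ± 16.3 in High and 224.3 ± 12.6 in Low.

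**Figure D3:**
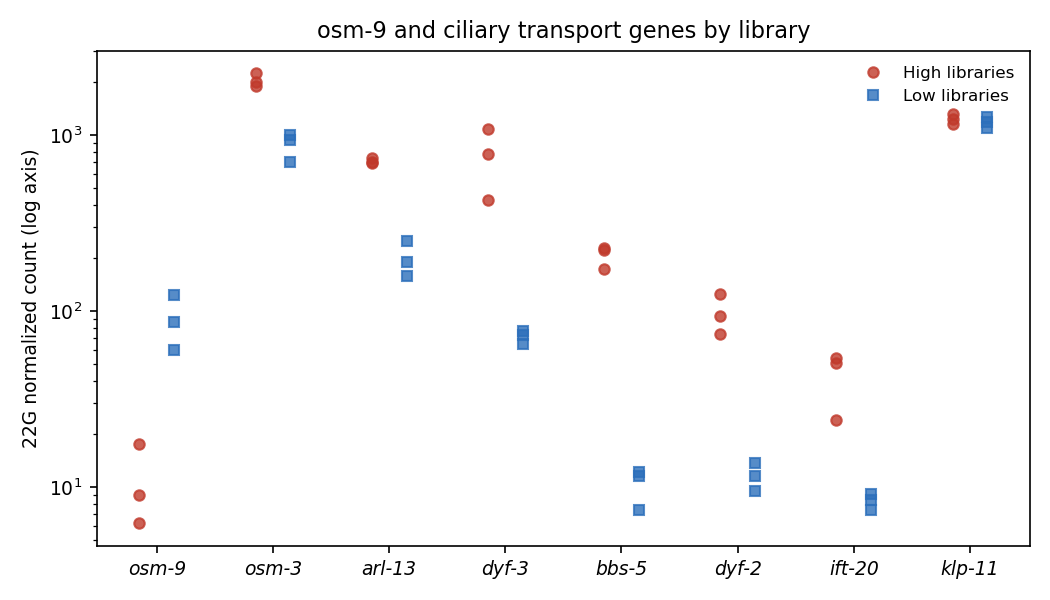
22G normalized counts on a log axis of osm-9, of the 6 ciliary transport genes called higher in High and of klp-11, with each High library as a red circle and each Low library as a blue square. osm-9 is the gene whose High libraries lie below its Low libraries, whereas bbs-5 has 174.0 to 227.5 in High and 7.41 to 12.1 in Low, and klp-11 shows overlapping groups.

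Of 20 mechanosensory genes, 1 was tested, the Piezo channel gene pezo-1, counted in the table as C10C5.1, at 963.4 ± 23.4 normalized counts in the High libraries and 913.6 ± 44.8 in the Low libraries (SD, n = 3 each; limma adjusted p = 0.631). Among all 129 listed genes outside the TRPV family that had a row, 47 were tested, 9 were called higher and 0 lower by limma (14 and 1 at an unadjusted p under 0.05), where 5.64% of all tested features were called higher and 2.66% lower. The lists were chosen with earlier results of these data known, so these counts are a description only. osm-9 had the most negative log2 difference of all 48 listed genes with enough 22G signal, TRPV family included, with pkd-2 next at -0.87. Since osm-9 was chosen by this contrast, its place among them is a description only.

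**Figure D4:**
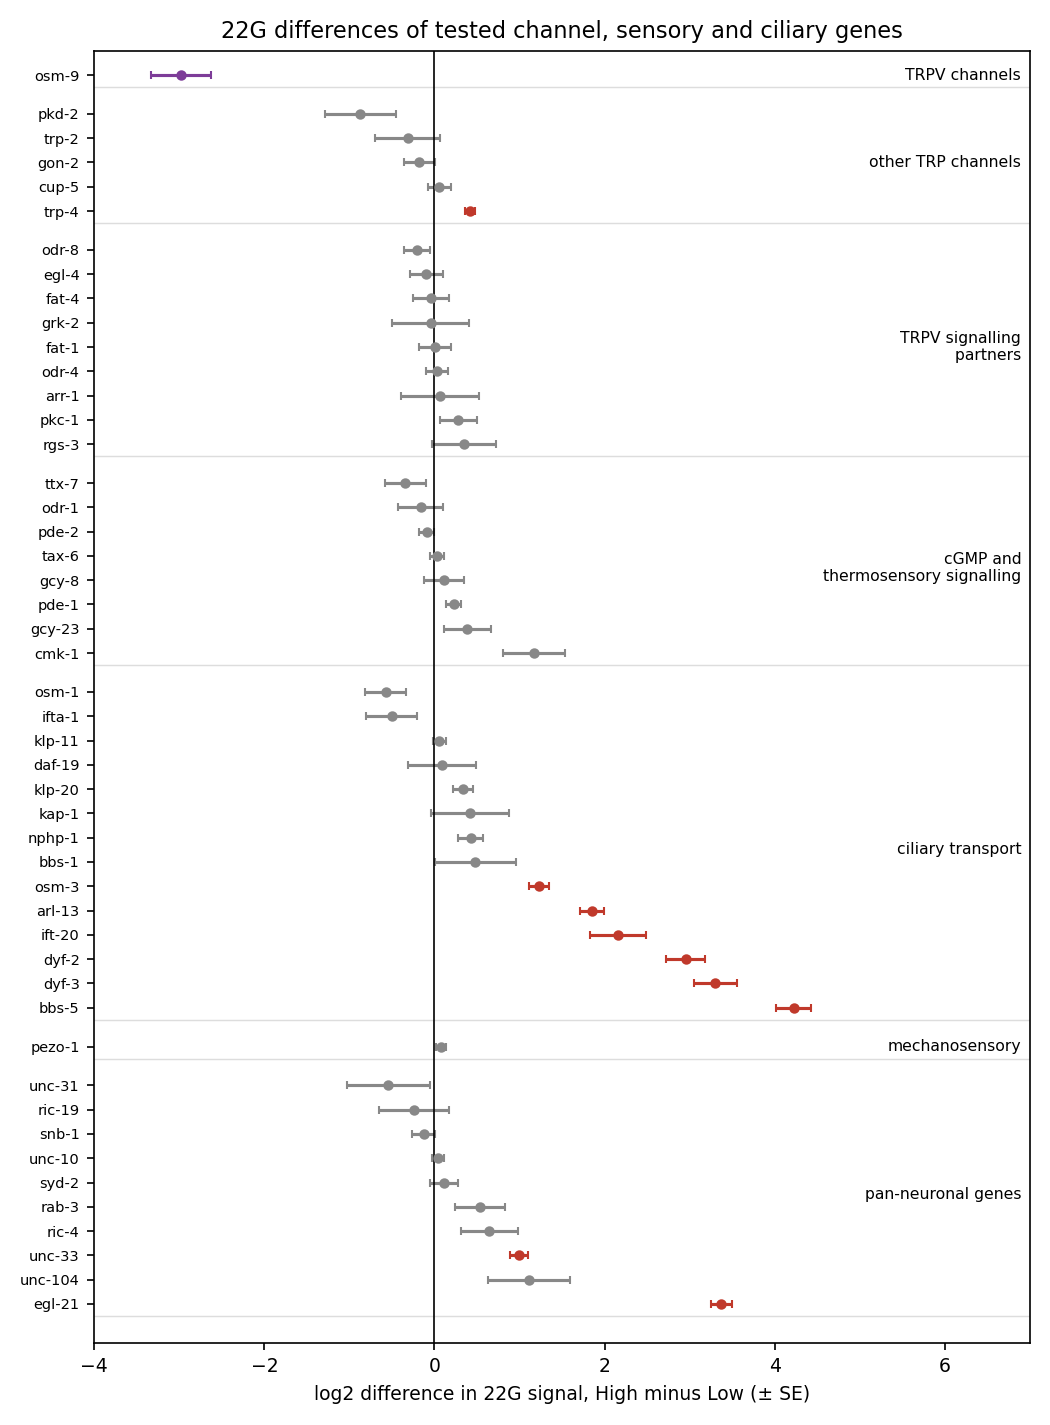
Log2 difference in 22G signal, High minus Low, with the SE of limma for every listed gene that reached the minimum of 5 normalized counts, by list. osm-9 (purple, -2.98) was chosen by this contrast and is not tested, red points are genes called at an adjusted p under 0.05, and grey points are genes that did not pass.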

How the data were processed

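Each of the 3 small RNA classes has 1 deposited table with a signal for every feature in 3 High and 3 Low libraries, which per the file headers and values is the authors' normalized read number. The submitters' processing notes name these tools: cutadapt (1.7.1) and Bowtie (1.1.1), then featureCounts (1.4.6), then DESeq2 (1.8.1), with no settings. The sources used here give no build, annotation, class definition, strand or rule for multiply matching reads. Within a library all nonzero values were whole multiples of 1 step (100% within 0.01 reads), so whole reads were recovered. Gene structure came from the Ensembl annotation of the WBcel235 build.

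Features averaging at least 5 normalized counts were tested with limma-trend (limma 3.58.1, R 4.3.3) after adding 1 and taking log2. The contrast was High minus Low with two-sided p-values, adjusted by Benjamini-Hochberg over all tested features of a class at a threshold of 0.05. Fold changes on this scale understate the change of low genes. Alternatives were edgeR 4.0.16 and DESeq2 1.42.0 on recovered reads, other pseudocounts, filters and scalings, a replicate block and each library left out. The fits were tested on simulated data.

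The members and the 6 other gene lists were chosen with earlier results of these data known. Named genes are the members, up to 4 called genes with the largest change and the 2 most abundant of each list, the neighbours of the members and the 5 features most like osm-9. cla-1 matched no row and was not analysed here. Figures were drawn with Matplotlib 3.10.9.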

Additional observations from a re-analysis of the deposited data

How the results depend on the processing

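The log2 difference of osm-9 in the 22G class ranged over the 16 alternatives from -3.36 without High replicate 1 to -2.58 with a pseudocount of 5. Over the 6 fits that left out a library it ranged from -3.36 to -2.68. Every Low library lay above every High library, so leaving out a library could not turn its sign. The filter and the variance trend do not enter this difference. The range therefore describes its size only. The 6 ciliary transport genes called higher stayed 6 in number under each of the 16. The count of all features called lower was 250, 139 in limma without trend, and 165 to 263 when a library was left out, the 165 without Low replicate 2. The other TRP channels gave 0 calls higher in limma without trend. Equal totals or TMM scaling left the median of all features at -0.00319 and 0.0175. High and Low libraries of the same replicate number showed little correlation in their deviations from the group means (0.0343, 0.0463 and 0.0196 for numbers 1 to 3). The labels do not say whether the numbers mark pairs. In this balanced design the replicate block cannot change a difference of group means, so osm-9 is at -2.98 there by construction. With the block 782 features were called in place of 780. The block and the fit without a filter brought B0212.7 past the threshold (limma adjusted p = 0.044 and 0.0148, over a range up to 0.398). No alternative could be computed for ocr-1, ocr-3 and ocr-4, or for any member in the 26G and 21U classes, where they had no reads. ocr-2, with 1 read of the 22G class, entered only the fit without a filter, and its value there is not given. In the 26G class 0 features were called, 11 by DESeq2 and 0 to 1 when a library was left out. In the 21U class 1 was called, 28 without a filter, 2 with a minimum of 20, 2 by edgeR, 0 with the replicate block and 0 to 53 when a library was left out (33, 20 and 53 on leaving out Low replicates 1, 2 and 3, and 0 on leaving out High replicate 2 or 3). The cause was not tested for any of these shifts. The read counts of osm-9, 7 to 16 per High library, limit the precision of its High mean.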

Other observations

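pkd-2 was the single listed gene with enough signal for a test in all 3 classes. It encodes a polycystin that acts in the cilia of male sensory neurons, and it was chosen after its values were seen. In the 26G class it was at 14.3, 6.22 and 9.82 normalized counts in High and at 30.3, 10.7 and 10.6 in Low, and in the 21U class at 5.50, 15.1 and 17.2 in High and at 21.2, 18.3 and 13.8 in Low. Neither difference passed (limma adjusted p = 0.619 and 0.43), and that of the 26G class was 0.0149 on the log2 scale, with its sign turned, when libraries were scaled to equal totals. By comparison, limma called 0% of the tested 26G features and 0.169% of the tested 21U features. In the 22G class pkd-2 was lower in each High library than in each Low library, as were 9.97% of all tested features, and did not pass.

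Of 18 pan-neuronal genes 10 were tested in the 22G class, and limma called 2 higher in High and 0 lower (3 and 0 at an unadjusted p under 0.05), where 5.64% of all tested features were called higher and 2.66% lower. This list too was chosen with earlier results of these data known, so the count is a description only. For the carboxypeptidase gene egl-21 the data gave a High mean of 375.3 ± 14.0 normalized counts and a Low mean of 35.6 ± 5.10 (SD, n = 3 each; 3.37 ± 0.12, limma adjusted p = 3.71e-08). unc-33, which organises microtubules in axons, was at 196.0, 237.2 and 239.8 normalized counts in High and 119.7, 107.7 and 108.0 in Low (0.99 ± 0.11, limma adjusted p = 0.000109). unc-10, which acts in synaptic vesicle priming, was at 1597 ± 62.8 and 1555 ± 114.6 (SD, n = 3 each) and did not pass (limma adjusted p = 0.847).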
